A study of Rattus norvegicus with 241 samples.

Results

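The classic target genes of TGFβ and YAP signaling were followed here in the mammary gland of the rat. They are 6 genes (CCN1, CCN2, TGFBI, ANKRD1, TAGLN2 and FBLN1) among 16818 genes listed in the bulk tables, chosen by name and matched ignoring case, with CYR61 read as CCN1 and CTGF as CCN2. CCN1, CCN2, TGFBI, TAGLN2 and FBLN1 were listed in 241 of 241 tables. ANKRD1 was listed in 221, and the tables without it are those of leukocytes from ACI rats with and without estradiol. All rats were female and received LY2157299 (galunisertib), an oral small-molecule inhibitor of TGFBR1 (TGFBRi, 75 mg/kg 2 times a day), or vehicle.

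Bulk RNA-seq was made from flow-sorted basal (CD24+CD29high), luminal (CD24+CD29low) and CD45+ cells, the last being leukocytes, in 202 libraries. Young ACI rats, an inbred strain, were dosed for 10 days from an age of 35 days and sampled 0, 7 or 14 days after the last dose, with 3 rats per arm and day. Young SD (Sprague Dawley, outbred) rats were dosed for 10 days from 24 days and sampled at day 0, with 4 rats per arm, and rats that the labels call weak or strong responders stayed in their treatment group. Adult ACI rats, virgin or parous, were dosed for 10 days from an age of 18 to 24 weeks and sampled at day 0. In the NMU experiment SD rats were dosed for 10 days from 21 days, then given 1 injection of the carcinogen NMU (50 mg/kg) and sampled 87 days later as tumor-bearing vehicle, tumor-bearing TGFBRi or tumor-free TGFBRi rats, and tumors were sorted into EPCAM+ and CD45+ cells. In the E2 experiment ACI rats were dosed for 21 days from 38 days and then received an implant with 37 mg estradiol (E2) or without it. They were sampled at the end of the tumor experiment, on a day that the labels call variable, and all E2 vehicle rats bore tumors. Single-cell RNA-seq was made at day 0 from sorted basal and luminal cells of young ACI rats (3 per arm), from the same sorts of young SD rats (3 vehicle, 6 TGFBRi) and from whole SD glands (3 vehicle, 6 TGFBRi). For 1 day 7 ACI rat (vehicle rat 3 of the epithelial fractions) the title and treatment label give vehicle while the description of its basal and luminal samples gives a treated animal, and it was kept as vehicle. A single CD45 library of the day 7 group carries day 9 in its title.

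TGFβ binds TGFBR2, which activates TGFBR1, and TGFBR1 phosphorylates SMAD2 and SMAD3, which enter the nucleus and act on target genes. YAP and TAZ are coactivators that the Hippo kinases keep out of the nucleus, and they act on DNA through TEAD factors. The pathways share targets. CCN1 and CCN2 encode secreted matricellular proteins that bind integrins and are the usual readouts of YAP and TEAD, and CCN2 is also a textbook TGFβ target. ANKRD1 encodes an ankyrin repeat protein of muscle and nucleus used as a YAP readout, TGFBI a secreted matrix protein named for its induction by TGFβ, TAGLN2 an actin-binding protein of the transgelin family, and FBLN1 a glycoprotein of matrix and basement membranes. In the mammary gland the basal (myoepithelial) layer is contractile and touches the basement membrane.

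Promoters were read to show which letters TEAD and SMAD factors could meet next to each gene. The 250 bases before the start site came from RefSeq (GRCr8) and are printed 5′ to 3′ in the sense of the gene for 4 of the 6 genes, with ANKRD1 and FBLN1 not printed here. Capitals mark GGAATG or its reverse CATTCC (the TEAD motif) and CAGAC or its reverse GTCTG (a SMAD-binding element), searched on both strands, and none of these matches overlap.
CCN2: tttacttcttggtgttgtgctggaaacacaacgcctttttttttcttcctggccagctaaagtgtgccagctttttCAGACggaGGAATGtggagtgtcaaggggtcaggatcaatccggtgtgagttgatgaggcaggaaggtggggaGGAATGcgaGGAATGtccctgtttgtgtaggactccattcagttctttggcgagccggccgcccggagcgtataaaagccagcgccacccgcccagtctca
CCN1: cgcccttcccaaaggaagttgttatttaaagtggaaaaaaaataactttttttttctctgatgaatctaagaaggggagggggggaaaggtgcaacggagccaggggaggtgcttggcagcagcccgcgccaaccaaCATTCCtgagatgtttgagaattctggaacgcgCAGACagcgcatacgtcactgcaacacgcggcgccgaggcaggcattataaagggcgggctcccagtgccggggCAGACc
TAGLN2: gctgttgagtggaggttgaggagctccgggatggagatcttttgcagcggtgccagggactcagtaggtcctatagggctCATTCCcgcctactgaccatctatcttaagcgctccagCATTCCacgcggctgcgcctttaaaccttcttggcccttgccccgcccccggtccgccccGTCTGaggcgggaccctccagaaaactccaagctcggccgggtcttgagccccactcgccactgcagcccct
TGFBI: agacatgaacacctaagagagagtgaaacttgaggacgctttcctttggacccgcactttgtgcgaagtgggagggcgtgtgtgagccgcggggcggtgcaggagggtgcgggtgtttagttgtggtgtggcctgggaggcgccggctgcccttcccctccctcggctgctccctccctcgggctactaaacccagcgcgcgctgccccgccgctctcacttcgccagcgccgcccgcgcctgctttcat
The CCN2 promoter (chr1:22624615-22624864, minus strand, 53.2% G and C) held 3 GGAATG, ending 161, 96 and 87 bases before the start, and 1 CAGAC ending 170 bases before it. Among 33465 rat promoters of this length, 12.1% held at least 1 such TEAD motif, 0.902% at least 2 and 0.0807% (27 promoters) at least 3. The CCN1 promoter (chr2:237225690-237225939, minus strand, 54% G and C) held 1 CATTCC beginning 113 bases before the start and CAGAC ending 76 and 2 bases before it. The TAGLN2 promoter (chr13:87499158-87499407, plus strand, 62.4% G and C) held CATTCC ending 165 and 127 bases and GTCTG ending 68 bases before the start. CAGAC or GTCTG was in 42.9% of all promoters, and 11.5% held at least 2. The TGFBI promoter (chr17:7990114-7990363, minus strand, 65.6% G and C) held neither motif, and the AP-1 motif TGACTCA (reverse TGAGTCA), in 4.05% of promoters, was in none of the 4. A match is a run of letters and not a bound site.

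Bulk depth was 4194912 to 52314784 reads on genes per library. The sorted single-cell tables held 16762 ACI and 39766 SD cells and those of whole glands 103524 cells. A cell barcode was shared with another library for 0.418%, 1.09% and 12.1% of them. Bulk values are reads divided by a size factor of the library (normalized values), and single-cell values are UMI counts given as CPM of all UMIs (unique molecules) in a rat's cells of 1 class, summed over those cells. In bulk, called means an adjusted p of 0.05 or less in limma over all genes, and in single cells an adjusted p of 0.1 or less in edgeR.

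In vehicle rats at day 0 the 6 genes divided between the basal and luminal sorts in both strains (the plot of bulk values by rat). CCN2, TGFBI, ANKRD1 and FBLN1 were higher in basal than in luminal cells of ACI and of SD rats. Mean CCN2 was 11970 normalized values in ACI basal cells against 356 in luminal cells, a log2 difference of 5.08 (adjusted p = 4.88e-11), and the SD difference was 4.43. FBLN1 was higher in basal cells by 4.30 in ACI and 4.29 in SD rats, TGFBI by 2.53 and 3.37, and ANKRD1 by 5.15 and 3.01. CCN1 was higher in ACI basal cells (54010 against 22010, log2 difference 1.3), and its SD difference of 0.57 was not called. TAGLN2 was lower in SD basal than luminal cells (−1.38) and by −0.70 in ACI, which was called only with the rat as a block (adjusted p = 0.0418) or with only these groups in the model. In all, 10 of 12 member tests were called, beside 20.5% of all genes in ACI and 50.1% in SD rats. Without ACI basal vehicle rat 3 or luminal vehicle rat 2 TGFBI was not called in ACI rats (highest adjusted p 0.0638), and ANKRD1 in SD rats was not called without basal vehicle rat 1 or 4 or luminal vehicle rat 1 or 3. Of a list of 30 other TGFβ targets, 15 of 26 tested were higher and 1 lower in ACI basal cells, with a median of 2.54 against 0.212 over all genes. The 4 largest were ACTA2, CNN1, COL4A1 and TAGLN. Of 22 other YAP and TEAD targets, 11 of 17 tested were higher and 1 lower (median 2.32), led by NT5E, AXL, AJUBA and IGFBP3. Of the 13 Hippo pathway genes TEAD1 (2.06), YAP1 (1.47) and TEAD3 were higher in ACI basal cells. In SD rats 17 TGFβ targets were higher and 4 lower, and 12 YAP targets were higher and 1 lower. Fibroblast markers were also higher in basal libraries, at sums of 21985 to 62324 against 5367 to 12192 in ACI vehicle rats. In SD vehicle rats they were 166337 to 318171 against 2320 to 10884. In vehicle whole SD glands TGFBI averaged 0.95 CPM in basal-like, 2.37 and 3.85 in luminal and 259 in fibroblast-like cells. FBLN1 averaged 9.0 in basal-like and 166 in fibroblast-like cells, and CCN2 142 and 44.8. The part of fibroblast RNA in the basal differences was not tested.

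**Figure D1:**
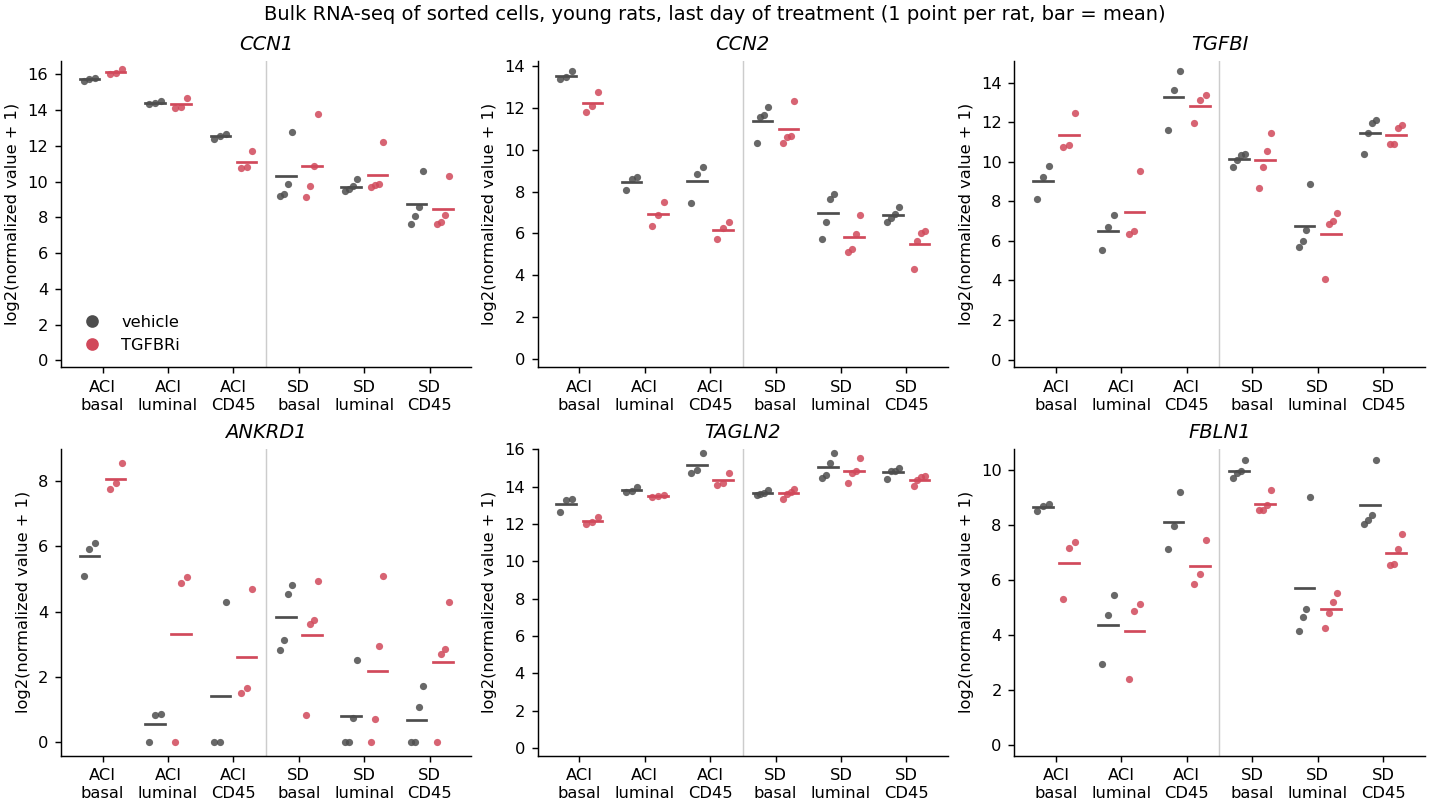
Bulk values of the 6 genes in young rats on the last day of treatment, on a log2(normalized value + 1) axis, with 1 point per rat (vehicle grey, TGFBRi red) and a bar at the mean. Mean CCN2 is 11970 normalized values in vehicle ACI basal cells and 356 in luminal cells, and in all 3 ACI fractions the TGFBRi rats lie below the vehicle rats.

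Treatment was compared with vehicle in the bulk fractions in 189 member tests. Of these 3 were called by limma, 1 by edgeR and 11 by DESeq2, and 29 (of limma) had an unadjusted p under 0.05. Over all genes in the same contrasts limma called 0.588%, edgeR 0.492% and DESeq2 2.11%, and 8.61% had an unadjusted p under 0.05. The 3 called are ANKRD1, higher, and FBLN1, lower, in ACI basal cells at day 0, and CCN2, lower, in ACI CD45 cells at day 0. Each of the 6 genes had treated and vehicle ACI basal rats apart at day 0, beside 32.1% of all genes whose groups did not overlap and 3.34% of all genes called there (7.85% by DESeq2).

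CCN2 was lower in treated rats in all 3 young ACI fractions at day 0, and limma called it in CD45 cells only. In ACI basal cells at day 0 it was 11259, 13853 and 10809 in vehicle rats and 4396, 7043 and 3513 in TGFBRi rats. The groups did not overlap, and the log2 fold change of −1.32 ± 0.39 (SE) had an adjusted p of 0.0692, which misses the threshold, while DESeq2 gave 0.0201 and limma on only these groups 0.00493. In ACI luminal cells CCN2 was 387, 265 and 418 against 117, 80.2 and 180 (−1.55 ± 0.37, adjusted p = 0.0578, DESeq2 0.00866). The groups again did not overlap, beside 32.1% of all genes apart in that contrast and 1.01% called. In ACI CD45 cells it was 174, 582 and 455 against 93, 52.3 and 76.1. There it fell by 2.30 ± 0.53 on the log2 scale (adjusted p = 0.0322, edgeR 0.0390), beside 2.85% of genes called. The call was lost in 4 of 6 models that left out a rat, vehicle rat 2 or any TGFBRi rat (highest adjusted p 0.146), and with only these groups in the model (0.162). SD rats gave lower but overlapping values in basal cells, 3015, 4164, 3255 and 1263 against 1619, 5076, 1583 and 1299 (−0.40). In SD CD45 cells the values were 93, 121, 152 and 106.4 against 68.4, 48.7, 18.6 and 63.9 (−1.36 ± 0.57, unadjusted p = 0.0352), with no overlap, beside 1.96% of all genes. No gene was called in any SD fraction by limma (0.0% of genes tested), 3 of 18 member tests had an unadjusted p under 0.05, edgeR called 0 members and DESeq2 1. Over all genes 494 of 12571 in basal, 244 of 12584 in luminal and 501 of 13779 in CD45 cells had such a p.

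The CD45 result stood beside a difference in other cell types of the sort. Summed over the marker list, fibroblast genes were 139495 to 400715 in vehicle and 16046 to 65100 in TGFBRi CD45 libraries at day 0, with 2 of 6 markers called lower. Basal markers were 2970 to 10514 against 79.3 to 228 (3 of 6 lower) and vascular smooth muscle markers 3001 to 8549 against 262 to 692 (4 of 6 lower). Pericyte markers were 1286 to 2017 against 299 to 316, Schwann markers 1856 to 3363 against 449 to 770, and mature luminal markers 1963 to 2613 against 605 to 1593. Neutrophil markers went the other way, 629 to 2312 against 8472 to 38954. Their part in the CCN2 result was not tested, and in a sorted bulk sample fewer cells of a type and less RNA per cell cannot be told apart. In ACI basal cells the basal marker sum was 117353 to 182912 in vehicle and 41440 to 82652 in TGFBRi rats (1 of 6 lower), fibroblast markers 21985 to 62324 and 24261 to 381760 (1 of 5 higher) and macrophage markers 160 to 297 and 1194 to 1431. Schwann markers in these libraries were 5942 to 10332 and 18666 to 26202 (0 of 5 called), and vascular smooth muscle markers 157442 to 162457 and 61202 to 147278 (0 of 6 called). Markers of secretory basal cells were 14622 to 21791 and 23881 to 37096 (0 of 5 called), and B-cell markers 3.26 to 32.6 and 137 to 320 (1 of 5 higher). Of the treated ACI basal libraries of day 0, 2 of 3 were shallower than every vehicle library (6562769 and 4194912 reads, and 15136358 in rat 3, against 12382292 to 18781674). On the authors' scale the median gene was 0.298 higher in treated basal and 0.212 higher in treated luminal cells (log2). From recovered reads it was 0.272 by edgeR, 0.349 by DESeq2 and 0.163 with TMM-scaled CPM in basal cells. In luminal cells it was 0.21 by DESeq2 and 0.108 with TMM-scaled CPM. Relative to the median on the authors' scale the CCN2 differences are larger by 0.298 in basal and 0.212 in luminal cells. The ANKRD1 difference in basal cells is smaller by 0.298, and the CCN1 difference of 0.41 in basal cells (0.34 with TMM scaling) stands beside that median. In ACI luminal cells of day 0 the 3 treated libraries (10192039, 8922897 and 18568520 reads) were shallower than every vehicle library (18895823 to 21160386). Mature luminal markers there summed to 11268 to 13997 in vehicle and 6608 to 8767 in TGFBRi rats (0 of 6 called), B-cell markers to 0 to 30.6 and 60.2 to 166 (0 of 5 called), and mast cell markers to 0 to 3.92 and 33.1 to 88.1 (1 of 4 higher). The part of depth and of these markers in the basal and luminal results was not tested.

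CCN1, the other matricellular gene, did not follow CCN2 in ACI basal cells. It was 56827, 54108 and 51110 in vehicle and 67093, 80971 and 68203 in TGFBRi rats, apart, with a difference of 0.41 ± 0.26 (adjusted p = 0.323, 95% confidence interval −0.13 to 0.96) where the median gene was 0.298 higher. In CD45 cells it was 5313, 5985 and 6611 against 1741, 3334 and 1826, with no overlap (−1.44 ± 0.42, adjusted p = 0.0776, DESeq2 0.0313). Groups did not overlap for 16.5% of all genes in that contrast. In SD basal cells CCN1 ranged from 594 to 7128 in vehicle and from 574 to 14386 in TGFBRi rats, a spread within each arm wider than any difference between them.

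TGFBI and ANKRD1 were higher in treated ACI basal cells at day 0. TGFBI was 275, 598 and 890 in vehicle and 1716, 1823 and 5601 in TGFBRi rats (log2 fold change 2.30 ± 0.62, adjusted p = 0.0543, DESeq2 0.00452). ANKRD1 was 33.4, 68.5 and 60.1 against 214, 374 and 244, from at most 84 reads in vehicle and at most 241 reads in TGFBRi libraries. It rose by 2.36 ± 0.61 (adjusted p = 0.0468, DESeq2 0.00196, edgeR 0.0937), and the call held in 1 of 6 models that left out a rat, that without TGFBRi rat 3 (highest adjusted p 0.172). In ACI luminal cells ANKRD1 had at most 1 read in a vehicle library and was at 32.7, 28.4 and 0 normalized values in TGFBRi rats, so that 2 treated rats stood apart from all others. These 2 libraries are the shallowest of the luminal cells at day 0 and list 15060 and 15143 genes above 0, against 12096 to 13296 in the other 4. In CD45 cells, the fraction where TGFBI, also a product of macrophages, was highest, it was 3108, 24160 and 12682 against 3937, 8810 and 10577 (−0.46), with wide overlap.

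FBLN1 and TAGLN2 had lower values with treatment in some bulk fractions at day 0. FBLN1 was 435, 412 and 363 in vehicle and 143, 38.3 and 165 in TGFBRi ACI basal cells. It fell by 2.04 ± 0.42 (adjusted p = 0.0234, edgeR 0.0628), by 1.38 without TGFBRi rat 2, and was not called without that rat or vehicle rat 1 or 2. In SD basal cells FBLN1 was 1305, 1003, 834 and 943 against 619, 369, 420 and 376, with every treated rat below every vehicle rat (−1.21 ± 0.20, unadjusted p = 8.96e-05). FBLN1 stood there beside 2.47% of all genes whose groups did not overlap. Its limma adjusted p was 0.98 and its DESeq2 adjusted p 0.000667. Fibroblast markers in these SD basal libraries summed to 166337 to 318171 in vehicle and 91693 to 275070 in TGFBRi rats, with 0 of them called. SD CD45 cells gave 326, 258, 1309 and 289 against 94, 203, 138 and 93.1 (−1.75 ± 0.54, unadjusted p = 0.00771), also apart, beside 1.96% of all genes. Fibroblast markers in these SD CD45 libraries summed to 51626 to 328122 in vehicle and 52128 to 84915 in TGFBRi rats (0 of 5 called), and their part in the FBLN1 values was not tested. TAGLN2 was 10332, 10077 and 6487 against 4402, 4157 and 5272 in ACI basal cells (−0.94 ± 0.46, adjusted p = 0.214, or 0.0170 with only these groups) and 27631, 57499 and 30038 against 18951, 17325 and 26898 in CD45 cells (−0.81, adjusted p = 0.107). In SD basal cells its difference was −0.02.

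Other targets of the pathways were counted in the same bulk contrasts. In ACI basal cells at day 0, 0 of 26 tested TGFβ targets were called higher and 2 lower, PMEPA1 (−1.73) and TGFB1I1 (−1.29), with a list median of −0.46 against 0.298 over all genes, beside 2.51% of all genes higher and 0.837% lower. None of 17 YAP and TEAD targets was called by limma. An unadjusted p under 0.05 was found for 1 of them, for 9 of 26 TGFβ targets and for 25.7% of all genes. In ACI luminal cells LTBP2 (−3.62) and PMEPA1 (−1.45) were lower of 26, beside 0.823% of all genes higher and 0.184% lower. In CD45 cells 8 of 27 TGFβ targets were lower (median −1.21 against −0.0381), beside 0.833% of all genes higher and 2.01% lower, among them CNN1 (−5.21), ACTA2 (−4.18), COL3A1 (−3.71) and LTBP2, which was listed at 0 in the treated rats. CNN1 and ACTA2 are contractile genes of smooth muscle and of basal (myoepithelial) cells, and COL3A1 is a collagen of fibroblasts. Of 17 YAP targets 1, CCDC80 (−2.60), was lower. In adult virgin basal cells 6 of 27 TGFβ targets were lower, led by LOX (−4.45), FN1 (−2.75), LTBP2 (−2.67) and COL3A1 (−2.39), and 2 were higher. They stood beside 6.23% of all genes lower and 2.5% higher. Of 18 YAP targets there 1, MYOF (−1.93), was lower, and of 12 Hippo pathway genes 2 were higher and 2 lower. List medians went the other way in some other contrasts. In CD45 cells of tumor-bearing NMU TGFBRi rats the TGFβ median was 0.773 against 0.087 over all genes, with 0 of 26 called. An unadjusted p under 0.05 was found for 15 of them, beside 1011 of 13297 genes. In luminal cells of tumor-free NMU rats the median was 0.629 against −0.323, with 0 called. MOB1A, a Hippo pathway gene, was called lower in adult parous luminal cells (−1.98) and higher in virgin basal cells (2.88).

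After treatment stopped no member was called at day 7 or day 14 by limma or edgeR, in any ACI fraction. Of the 6 members, 3 in basal cells at day 7, 0 at day 14, and 1 in CD45 cells at day 14 had an unadjusted p under 0.05. Over all genes 871 and 298 of 15643 had such a p in basal cells at days 7 and 14, and 725 of 14761 in CD45 cells at day 14. At day 7 mean TGFBI in basal cells was 208 ± 101.6 (SD) in vehicle and 826 ± 475 in TGFBRi rats (1.89, unadjusted p = 0.00793), mean ANKRD1 17.4 and 47.1 (1.46, unadjusted p = 0.0284) and mean CCN1 32278 ± 8929 and 49540 ± 4614 (0.65, unadjusted p = 0.0218), each by limma. Without vehicle rat 3, the rat with labels at odds, the day 7 differences were 1.70 for TGFBI (unadjusted p = 0.0288), 0.97 for ANKRD1 (unadjusted p = 0.147) and 0.84 for CCN1 (unadjusted p = 0.00737). At day 14 the means were 225 and 189 for TGFBI, 35.3 and 16.1 for ANKRD1, and 57255 and 51140 for CCN1. CCN2 in basal cells was 5565 and 8909 at day 7 and 6825 and 5230 at day 14. FBLN1 averaged 1727 in vehicle and 1113 in TGFBRi rats at day 7, against 657 and 1038 at day 14. The share of genes called in these contrasts was 0.00639% in basal cells at day 7 and 0.0% in the other 5.

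The change of the treatment effect over days was tested itself. Of 36 member tests limma and edgeR called 0, DESeq2 called 6, and 12 had an unadjusted p under 0.05, beside 0.0351%, 0.0274%, 1.54% and 9.97% of all gene tests in these contrasts for limma, edgeR, DESeq2 and the unadjusted p. In basal cells the effect at day 14 minus that at day 0 was 2.70 for FBLN1 (unadjusted p = 0.00036, adjusted p = 0.115), −3.40 for ANKRD1 (unadjusted p = 0.00112, adjusted p = 0.16) and −2.68 for TGFBI. DESeq2 gave adjusted p-values of 0.00057 for FBLN1 and 0.00567 for ANKRD1. For CCN2 the effect at day 7 minus that at day 0 was 2.03 in basal cells (unadjusted p = 0.00192, adjusted p = 0.464, and 1.88 without vehicle rat 3), and the day 14 difference was 2.10 in luminal (adjusted p = 0.30) and 2.42 in CD45 cells (adjusted p = 0.141). CCN1 (1.99) and TAGLN2 (1.56, adjusted p = 0.0869) went the same way in CD45 cells. All genes called made up 0.0% at day 7 and 0.00639% at day 14 in basal, 0.0% and 0.00659% in luminal, and 0.0135% and 0.19% in CD45 cells (5.58% at day 14 by DESeq2). The effects in basal and luminal cells at day 0 differed by limma for 0 members (1 unadjusted p under 0.05, FBLN1 −1.81, adjusted p = 0.653, beside 0.152% of genes). In vehicle basal cells FBLN1 was 2.08 higher at day 7 than at day 0 (adjusted p = 0.056, DESeq2 3.96e-07), and the other day 7 differences were CCN2 −1.14, ANKRD1 −1.69, TGFBI −1.44 and CCN1 −0.78. These day 7 values include vehicle rat 3, the rat with labels at odds. No member passed in limma, 8 of 36 had an unadjusted p under 0.05, and DESeq2 called 1, beside 10.9% of all gene tests under that p and 3.3% called by DESeq2. The share of genes called was 0.192% and 0.0384% in basal cells at days 7 and 14, 0.685% and 0.389% in luminal cells, and 0.0% and 0.129% in CD45 cells.

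**Figure D2:**
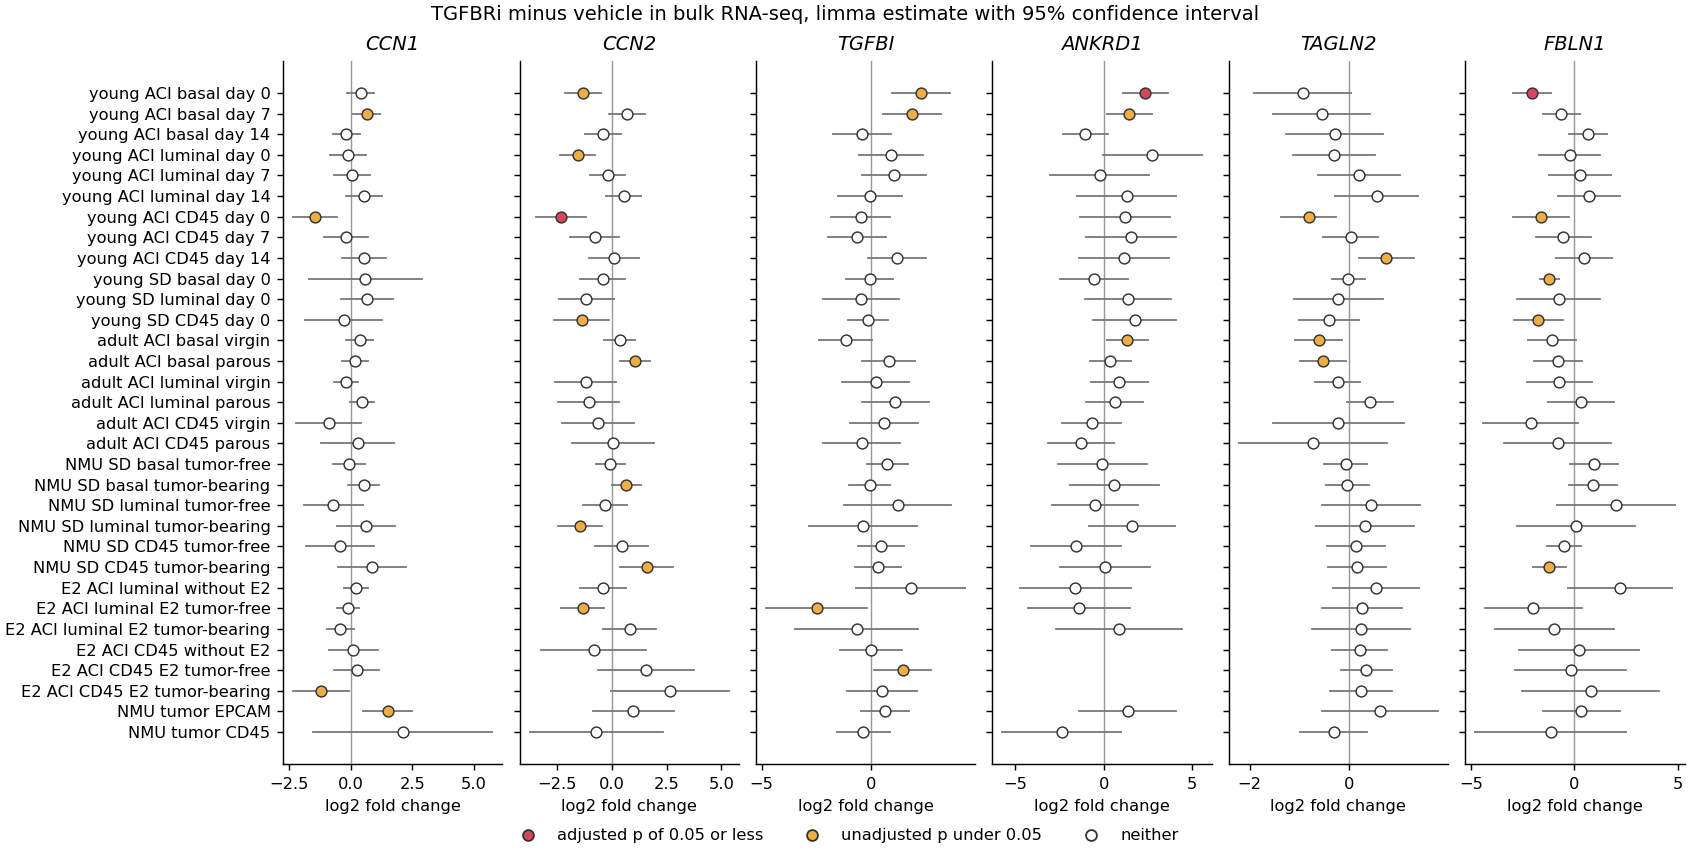
TGFBRi minus vehicle for each of the 6 genes in every bulk contrast, as the limma log2 fold change (points) with its 95% confidence interval (lines), red where the adjusted p is 0.05 or less and orange where only the unadjusted p is under 0.05. The 3 red points are ANKRD1 and FBLN1 in young ACI basal cells and CCN2 in young ACI CD45 cells, all at day 0, and ANKRD1 has no points in E2 CD45 cells, whose tables do not list it.

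In adult, NMU and E2 rats and in tumors 0 of 117 member tests were called by limma or edgeR, 2 by DESeq2, and 13 had an unadjusted p under 0.05. Over all genes in all bulk contrasts of treatment, young rats included, 8.61% had such a p in limma and DESeq2 called 2.11%. Adult virgin basal cells had ANKRD1 at 81.8, 63.4, 131 and 87.3 in vehicle and 360, 197, 198 and 178 in TGFBRi rats (1.34, unadjusted p = 0.0267). The groups were apart, beside 11.4% of all genes apart in that contrast and 8.73% called. TAGLN2 in the same cells was 28101, 27566, 24141 and 25906 against 13908, 22922, 19052 and 14805 (−0.61, adjusted p = 0.1). In parous basal cells CCN2 was 13949, 13378, 24615 and 16649 against 48034, 32767, 36335 and 26181, each treated rat above each vehicle rat (1.07, unadjusted p = 0.00465, adjusted p = 0.91). Groups did not overlap for 5.77% of all genes in that contrast. Young ACI basal cells had lower CCN2 in treated rats at day 0, and the difference between these effects was not tested. The shares of genes called in the other adult contrasts were 0.00744% in parous basal, 0.0% in virgin and 0.0281% in parous luminal, and 0.022% in virgin and 0.0% in parous CD45 cells. Between parous and virgin vehicle rats no gene was called (0.0%) in any fraction by limma, and 1 of 18 member tests had an unadjusted p under 0.05, TAGLN2 in luminal cells (−0.52). Over all genes 408 of 13442 in basal, 1361 of 14243 in luminal and 209 of 13618 in CD45 cells had such a p.

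In NMU rats CCN2 of luminal cells was 696, 669 and 733 in tumor-bearing vehicle and 187, 282 and 312 in tumor-bearing TGFBRi rats (−1.46, unadjusted p = 0.00627, adjusted p = 0.14, DESeq2 0.0456), with no overlap, beside 16.4% of all genes. In tumor-free TGFBRi rats it was 954, 765 and 256. FBLN1 in CD45 cells was 1549, 3148 and 1775 in vehicle and 1216, 992 and 576 in tumor-bearing TGFBRi rats (−1.21, unadjusted p = 0.00648), and mean CCN2 there was 178 and 510 (1.59, unadjusted p = 0.0141). In NMU tumors CCN1 of EPCAM+ cells was 420, 829 and 436 in vehicle and 1048, 2025 and 1645 in TGFBRi rats, the groups apart (1.51, unadjusted p = 0.00725, adjusted p = 1.0). Groups did not overlap for 6.46% of all genes in these EPCAM+ cells. The shares of genes called were 0.0%, 0.948% and 0.0% for tumor-free and 1.31%, 0.212% and 0.015% for tumor-bearing TGFBRi rats in basal, luminal and CD45 cells, and 0.0% in EPCAM+ and in CD45+ tumor cells. In E2 rats mean CCN2 of luminal cells was 1901 in vehicle and 710 in tumor-free TGFBRi rats (−1.31, unadjusted p = 0.0119). The vehicle rats of this contrast bore tumors, so treatment and tumors cannot be told apart in it. In the 2 tumor-bearing E2 TGFBRi rats mean CCN2 was 126 CPM of reads on genes, the highest of the 20 luminal groups. CCN1 in CD45 cells was lower with E2, 923, 688, 1031 and 1062 in vehicle rats without E2 against 192, 592, 422 and 178 with it (−1.58, unadjusted p = 0.002, adjusted p = 0.135). The groups were apart, beside 6.19% of all genes. All vehicle rats with E2 bore tumors, so E2 and tumors cannot be told apart. In luminal cells 0.0147% of genes were called without E2, 0.0147% in E2 rats free of tumors, 0.00736% in those with tumors and 1.48% between E2 and no E2. In CD45 cells they were 0.0%, 0.0%, 0.0223% and 0.282%.

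Across all 59 bulk groups the fractions had their own levels, given here in CPM of reads on genes as the lowest, median and highest group mean. CCN2 was 66.8, 364 and 1562 in basal, 4.4, 24.5 and 126 in luminal and 0.351, 8.9 and 36.1 in CD45 cells, and 126 and 207 in the EPCAM+ tumor groups. CCN1 was 54.1, 2909 and 5189 in basal, 46.3, 1333 and 1965 in luminal and 0.957, 71.7 and 525 in CD45 cells. TGFBI was highest in CD45 cells (23.1, 246 and 535) and lower in basal (11.6, 39.6 and 210) and luminal cells (2.66, 9.23 and 41.3). ANKRD1 reached 20 in treated ACI basal cells at day 0, with a basal median of 1.86 and luminal and CD45 medians of 0.165 and 0.082. TAGLN2 overlapped between fractions, at 329, 1100 and 3022 in basal, 406, 920 and 2112 in luminal and 482, 1320 and 3082 in CD45 cells. FBLN1 was 8.15, 39.9 and 114 in basal and 1.43, 2.31 and 32.4 in luminal cells, and highest in EPCAM+ tumor cells at 247 and 263. The lowest CCN1 means of both epithelial fractions were in tumor-free NMU TGFBRi rats. Only the basal and luminal libraries of young SD and NMU rats share a gene list across data sets, and no level was tested between data sets.

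Sorted single cells came from rats with other codes, sampled at day 0. In the ACI basal sort CCN2 was 1349, 1994 and 1884 CPM in vehicle and 358, 222 and 224 in TGFBRi rats. It fell by 2.47 on the log2 scale (adjusted p = 0.000362, DESeq2 −2.45 ± 0.18 SE), was called in 6 of 6 models that left out a rat, and stood beside 33% of genes called. CCN1 also fell, from 693, 806 and 697 to 434, 373 and 460 (−0.56, adjusted p = 0.00451), and TAGLN2 rose, from 370, 342 and 234 to 434, 471 and 509 (0.81, adjusted p = 0.00526). These are the opposite signs of CCN1 and TAGLN2 in bulk ACI basal cells, whose differences were not called. ANKRD1 was at 3.26, 2.95 and 3.66 in vehicle and 2.41, 2.22 and 1.74 in TGFBRi rats (−0.38, adjusted p = 0.288), apart, beside 46.6% of all genes, and with few molecules. TGFBI averaged 0.215 and 1.54 (2.44, adjusted p = 0.204, and 3.02 with an adjusted p of 0.0767 without TGFBRi rat 1). It averaged 0.0774 and 1.27 in the basal-like clusters alone, a set added after the data were seen, where the rats stood apart and it rose by 3.46 (adjusted p = 0.0745). Groups did not overlap for 47.2% of all genes in these clusters. FBLN1 averaged 4.01 and 4.02. In bulk ACI basal cells ANKRD1 was called higher and FBLN1 lower, and neither was called in these single cells, where ANKRD1 had the opposite sign. Fibroblast markers, in tables that hold only cells with keratin UMIs, were low, 2.06 to 51 in vehicle and 36.1 to 211 in TGFBRi rats, and basal markers summed to 5677 to 6723 and 6058 to 6605.

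In the SD basal sort CCN2 was 308, 168 and 490 in vehicle and 106.03, 52.2, 65.7, 95.4, 86.6 and 104.04 in TGFBRi rats. It fell by 1.56 (adjusted p = 0.0152), and without vehicle rat 3 by 1.10 with an adjusted p of 0.13, beside 24.7% of genes called. TAGLN2 rose from 646, 544 and 563 to 879, 943, 938, 757, 1542 and 963 (1.2, adjusted p = 0.0241), and the call was lost without vehicle rat 1 or 3 (highest adjusted p 0.146). CCN1 was 743, 562 and 591 against 273, 238, 248, 264, 651 and 474 (−0.41, adjusted p = 0.43, or −0.82 and 0.0843 with library size alone as the scale), 5 of 6 treated rats lying below every vehicle rat. FBLN1 rose from 5.87, 8.12 and 3.59 to 14.2, 22, 19.6, 6.86, 3.61 and 7.75 (1.49, adjusted p = 0.0834), the groups overlapped, and the call was lost without vehicle rat 1 or 3 or TGFBRi rat 1, 2 or 3, and with library size alone as the scale (adjusted p = 0.165). Fibroblast markers in this sort ran from 166 to 5124 in vehicle and 124 to 1519 in TGFBRi rats, and within the basal-like clusters alone FBLN1 averaged 4.50 and 12.4 (1.91, adjusted p = 0.051). In bulk SD basal cells FBLN1 had the opposite sign, with every treated rat below every vehicle rat, though limma did not call it. In the basal sort of TGFBRi rat 4, 293 of 563 cells lay in unnamed clusters, led by genes such as DES and SPARCL1, against 8 to 235 of 581 to 3677 cells in the other rats. In the basal-like clusters alone CCN2 fell by 1.58 (adjusted p = 0.00723) and TAGLN2 rose by 1.22 (adjusted p = 0.018). The effects in ACI and SD rats were compared in 1 model chosen after the data were seen, and 0 of 6 members differed in edgeR in basal cells (1 unadjusted p under 0.05, CCN2 −0.94, unadjusted p = 0.037, adjusted p = 0.28), beside 0.485% of genes. In luminal progenitor-like and mature luminal-like cells 0 members differed, and 0 had an unadjusted p under 0.05, beside 0.0344% and 0.267% of genes.

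Luminal cells held little CCN2. In the ACI luminal sort it was 6.9, 3.67 and 8.47 in vehicle and 4.21, 1.99 and 1.05 in TGFBRi rats (−1.15, adjusted p = 0.12), beside 25% of genes called. In the SD luminal sort it fell from 14.5, 10 and 43.7 to 8.68, 2.7, 7.78, 1.53, 2.87 and 7.15 (−1.85, adjusted p = 0.0407). It was not called without vehicle rat 1 or 3, and without rat 3 the fold change was −0.96 with an adjusted p of 0.242. In its luminal progenitor-like cells, where CCN2 fell by 2.05 (adjusted p = 0.0359), the same rat gave 68.6 against 22.5 and 12.8, without it the value was −1.02 (adjusted p = 0.19), and the call was also lost without vehicle rat 1. In ACI mature luminal-like cells CCN2 rested on 9, 6 and 1 UMIs in vehicle and 0, 0 and 1 in TGFBRi rats (−3.26, adjusted p = 0.046), and the call was lost without TGFBRi rat 1 or 2. CCN2 was not called in ACI luminal progenitor-like cells, where it averaged 10.8 and 4.75 (−0.97, adjusted p = 0.153), nor in SD mature luminal-like cells, at 3.54 and 2.11 (−0.58, adjusted p = 0.624). A UMI of CCN2 was in 3.24% of vehicle ACI luminal-sort cells and 84.8% of basal-sort cells, and the part of free RNA in the luminal values was not tested. TAGLN2 rose in 5 of the 6 sorted luminal sets. It went from 492, 498 and 387 to 651, 606 and 521 in the ACI luminal sort (0.64), and by 0.63 in progenitor-like and 0.59 in mature luminal-like cells, called in 6 of 6 models without a rat each. In SD rats it rose from 660, 542 and 563 to 746, 656, 655, 986, 1112 and 626 (0.81, adjusted p = 0.054, not called when any vehicle rat was left out or with library size alone as the scale) and by 0.77 in mature luminal-like cells (not called without vehicle rat 2). In SD luminal progenitor-like cells TAGLN2 averaged 476 and 585 with overlap (0.70, adjusted p = 0.126). Folds are scaled by TMM while levels are not, so CCN1 in ACI luminal cells averaged 190 and 159 with a fold change of 0.02. In the sorted experiments 14 of 41 member tests were called (34.1%), beside 28.7% of all gene tests in the same comparisons, and the shares of genes called were 29.8% and 25.8% in ACI, and 31.8% (whole sort), 28.5% and 31% in SD, for progenitor-like and mature luminal-like cells.

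The vehicle and treated cells of the basal sorts fell into different clusters, made without the 6 genes. In ACI rats cluster 4 held both arms (867 vehicle and 898 TGFBRi cells), and within it CCN2 was 791 CPM in vehicle and 222 in TGFBRi cells, CCN1 453 and 328, and TAGLN2 122 and 237. Clusters 0 and 2 held 2397 and 1913 vehicle cells, in which CCN2 was 1734 and 2165, and the treated cells of these clusters (151 and 144) had 569 and 694. Cluster 3 held 217 vehicle and 1813 TGFBRi cells with CCN2 at 640 and 207. In SD rats cluster 4 held 2651 vehicle and 256 treated cells with CCN2 at 398 and 184, and cluster 6 held 381 and 2110 cells with 239 and 68.1. These 6 were named, after their values were seen, for holding over 100 cells of each arm. In ACI cluster 7, CCN2 was 894 in 40 vehicle and 346 in 1309 TGFBRi cells, and in cluster 9 529 in 35 and 213 in 62. In SD rats it was 247 in 28 vehicle and 74.6 in 3511 TGFBRi cells of cluster 1, 155 in 92 and 115 in 2080 of cluster 8, and 136 in 18 and 58 in 593 of cluster 15. SD cluster 2 held TGFBRi cells only (3383, with CCN2 at 82.5), a share of 0.99 of them from 1 rat. In each of the 11 basal-like clusters with both arms CCN2 was lower in treated than in vehicle cells. These are values over pooled cells, with no test.

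**Figure D3:**
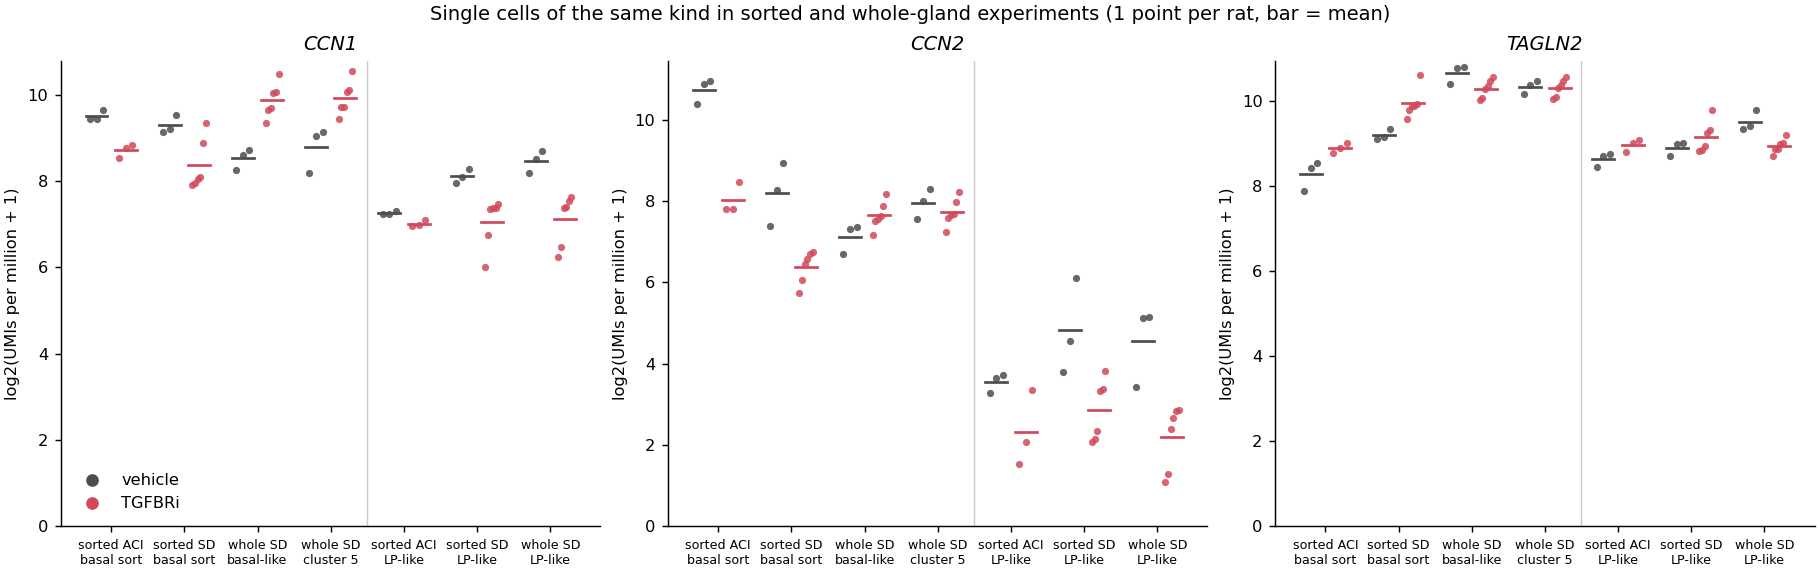
CCN1, CCN2 and TAGLN2 in cells of the same sort or class in 3 single-cell experiments, on a log2(CPM + 1) axis, with 1 point per rat (vehicle grey, TGFBRi red) and a bar at the mean. LP stands for luminal progenitor. CCN2 is lower in every treated rat of both basal sorts than in the vehicle rats, and in whole-gland basal-like cells treated rats lie at 144 to 288 against 103.4 to 163 in vehicle rats. The arms of these basal-like cells hold different clusters, and within cluster 5 alone the rats of both arms overlap for CCN2.

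Levels by cell class in whole SD glands (the plot of whole-gland levels) are given for vehicle rats, as means over 3 rats in CPM. The share of free RNA in these libraries was not estimated, so a low value is not read as expression by that class. CCN1 was spread over stroma and epithelium, at 728 in Schwann-like, 494 in fibroblast-like, 373 in basal-like and 356 in luminal progenitor-like cells, 289 in lymphatic and 272 in vascular endothelium-like cells, and at most 16.1 in immune cells. CCN2 was highest in basal-like (142) and vascular endothelium-like cells (132), which overlapped over rats, followed by pericyte-like (52.3) and fibroblast-like cells (44.8). TGFBI was a gene of macrophage-like (390), Schwann-like (284), lymphatic endothelium-like (280), fibroblast-like (259) and dendritic-like cells (235), and averaged 5 or less in each epithelial class. FBLN1 stood at 166 in fibroblast-like cells against 10.8 in vascular endothelium-like and 9.0 in basal-like cells, and at 0.426 and 0.471 in luminal progenitor-like and mature luminal-like cells. TAGLN2 was found in every class, from 409 in T-cell-like to 1852 in dendritic-like cells. ANKRD1 was at most 1.64, in pericyte-like cells. Over the 13 classes, the genes with the profile most like CCN1 by Pearson's r were NFIB (0.969), PARVA and NFIA, those most like CCN2 were PELO (0.952), FJX1 and HDX, most like TGFBI RAB32 (0.881), CCL2 and PID1, most like TAGLN2 MAFG (0.815), UBE2F and MYO1C, and most like FBLN1 BDKRB2 (0.904), MMP2 and SURF4. The classes come from the same libraries, so these values are descriptions.

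**Figure D4:**
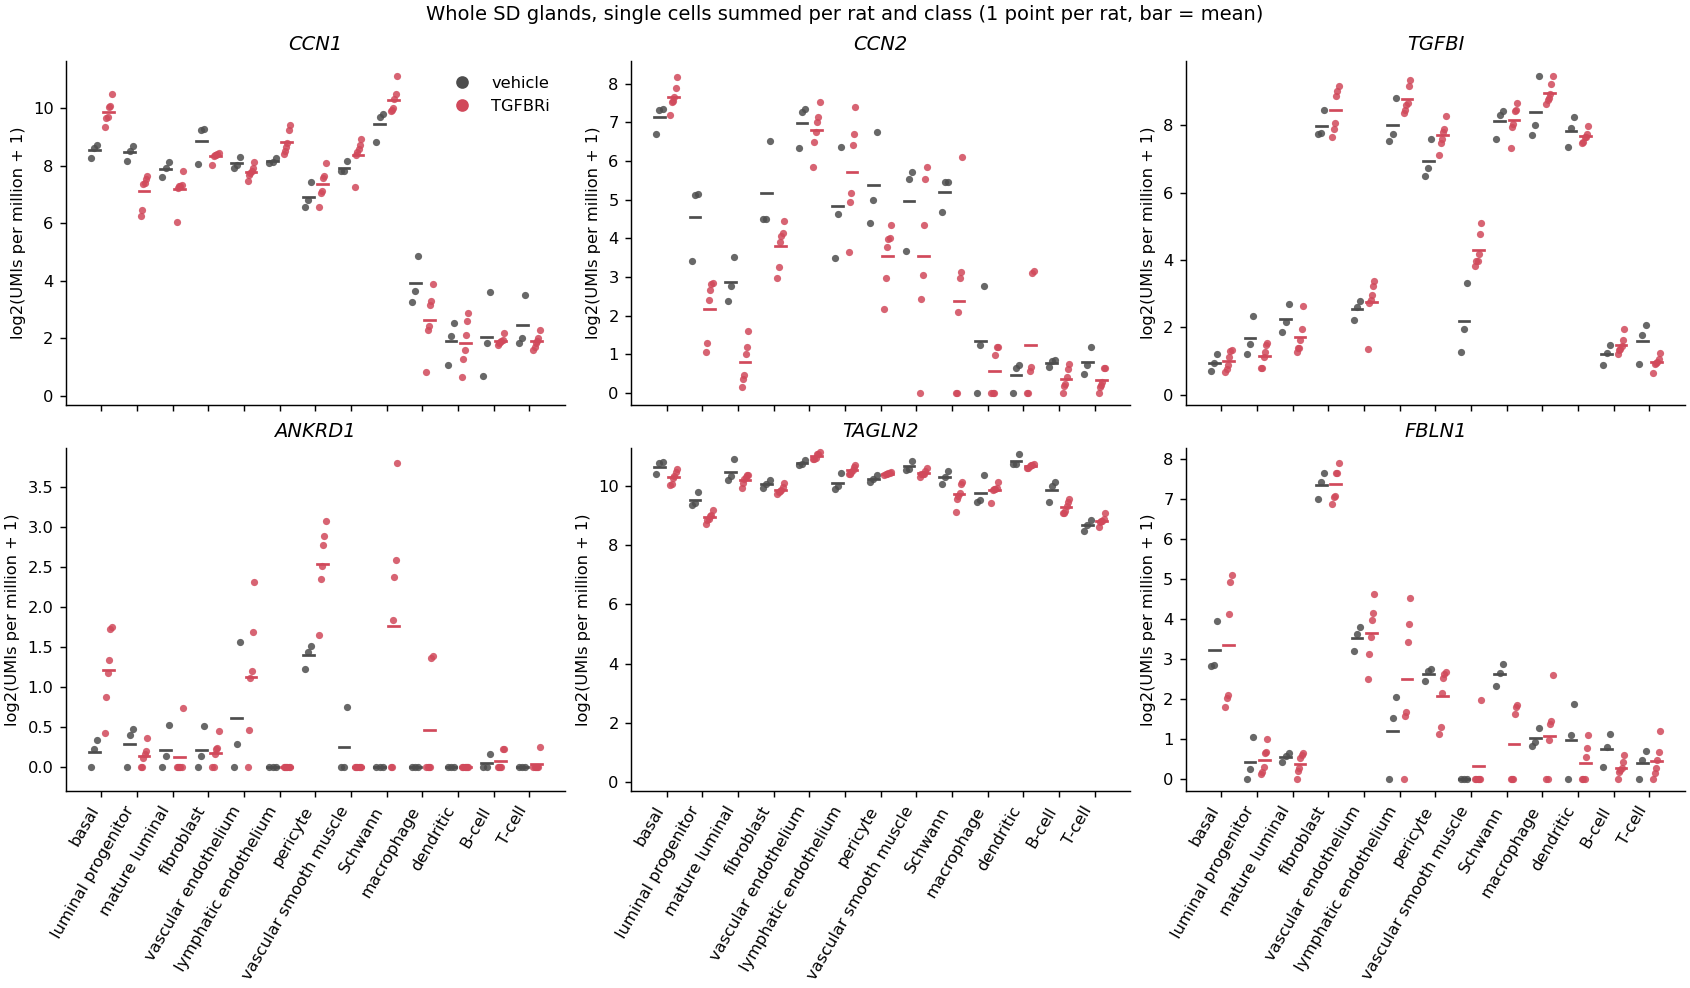
Levels of the 6 genes in 13 cell classes of whole SD glands at day 0, on a log2(CPM + 1) axis, with 1 point per rat (vehicle grey, TGFBRi red) and a bar at the mean. FBLN1 is highest in fibroblast-like cells and TGFBI in macrophage-like cells, CCN1 and CCN2 are low in immune classes, and treated rats lie below vehicle rats for CCN2 in both luminal classes.

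In whole-gland basal-like cells the matricellular genes rose. CCN1 went from 307, 389 and 423 in vehicle to 1054, 1074, 828, 805, 655 and 1435 in TGFBRi rats (1.40, adjusted p = 0.0011), called in 9 of 9 models that left out a rat. CCN2 went from 103.4, 159 and 163 to 199, 288, 183, 237, 144 and 188 (0.56, adjusted p = 0.0619, or 0.40 with an adjusted p of 0.239 without vehicle rat 1), and ANKRD1 from 3, 4 and 0 UMIs (0.173, 0.266 and 0 CPM) to 0.34 to 2.36 CPM (2.77, adjusted p = 0.00844). TAGLN2 fell from 1762, 1736 and 1336 to 1495.3, 1402, 1035, 1066, 1288 and 1237 (−0.37, adjusted p = 0.0829, called in 3 of 9 models without a rat, those without vehicle rat 4 or TGFBRi rat 1 or 2), and 44.3% of all genes were called. The arms held different clusters. Cluster 5 had 498 vehicle and 4924 TGFBRi cells and cluster 9 had 3436 vehicle and 28 TGFBRi cells, led by EPGN, NIPAL4, FST and NRG1. Within cluster 5 CCN1 was 563, 293 and 527 in vehicle and 698 to 1509 in TGFBRi rats (1.26, adjusted p = 0.0753). CCN2 in that cluster was 189, 258 and 317 against 150 to 302 (−0.09), TAGLN2 averaged 1284 and 1272 (0.12), and the ANKRD1 fold change of 2.09 was not called (adjusted p = 0.42). Of the 4 calls only that of CCN1 was made within this cluster, where 3.35% of all genes were called. Luminal markers in basal-like cells summed to 1814 to 2079 in vehicle and 1181 to 1553 in TGFBRi rats.

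The effect in whole-gland basal-like cells differed from that in the sorted SD basal cells, rats of the same strain, age and dose. In 1 edgeR model over 24 rats, chosen after the data were seen, the difference of effects was 2.10 for CCN2 (adjusted p = 0.000263), 1.78 for CCN1 (0.00157), 3.42 for ANKRD1 (0.0045) and −1.59 for TAGLN2 (0.000287), beside 41.7% of all genes. In luminal progenitor-like cells it was −1.40 for TAGLN2 (0.00336) and −4.56 for ANKRD1 (0.087, on few molecules), beside 29.7% of genes. In mature luminal-like cells it was −1.16 for TAGLN2 (0.0015) and −2.47 for CCN2 (0.078), beside 34.3%. TGFBI and FBLN1 did not pass in any of these (basal differences −0.03 and −0.86). The experiments differ in library chemistry (3′ or 5′ tags), in dissociation to a sort or to the whole gland, in the authors' filter on cells and in the clusters held by each arm, and these cannot be told apart. The sorted tables hold 0 cells with a UMI of PTPRC, the CD45 gene, and 0 with under 2 UMIs on keratin genes, while in whole glands these are 33.5% and 69.9% of 103524 cells.

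In both luminal classes of whole glands CCN2 fell. In luminal progenitor-like cells it was 9.71, 34.5 and 33.7 in vehicle and 1.1 to 6.25 in TGFBRi rats (−2.77, adjusted p = 0.00815), and in mature luminal-like cells 10.4, 4.17 and 5.8 against 0.108 to 2.02 (−3.05, adjusted p = 0.00474), each called in 9 of 9 models that left out a rat. CCN1 in luminal progenitor-like cells fell from 290, 365 and 413 to 74.7 to 199 (−1.40, adjusted p = 0.00835), and in mature luminal-like cells its means were 238 and 153 (−0.73, adjusted p = 0.101). TAGLN2 fell there too, from a mean of 732 to 491 in progenitor-like cells (−0.70, adjusted p = 0.00815) and by 0.38 in mature luminal-like cells (adjusted p = 0.0789, not called without vehicle rat 4 or TGFBRi rat 4, 6, 11 or 14, or with library size alone as the scale). Basal markers moved with these results. They summed to 179 to 502 in vehicle and 23.9 to 94.3 in TGFBRi progenitor-like cells (3 of 5 lower, 1 higher) and to 143 to 647 against 20.1 to 45.4 in mature luminal-like cells (3 of 5 lower), and their part was not tested. In the sorted SD luminal cells CCN2 also fell, a call lost in some models that left out a vehicle rat. Basal markers in that sort were 44 to 79.1 in vehicle and 35.1 to 88.8 in TGFBRi rats, and the experiments were not compared for them. The shares of genes called were 27.0% in progenitor-like and 28.7% in mature luminal-like cells.

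Stromal classes did not move as 1 group. In fibroblast-like cells CCN1 fell from 614, 600 and 268 to 344, 261, 332, 332, 351 and 322 (−0.79, adjusted p = 0.00826) and CCN2 from 91.3, 21.4 and 21.7 to 6.9 to 20.7 (−1.89, adjusted p = 0.0215, and −0.95 without vehicle rat 1), beside 30.1% of genes. TAGLN2 fell by 0.41 in them (adjusted p = 0.0266, or 0.244 with library size alone as the scale). FBLN1 and TGFBI, both expressed there, averaged 166 and 171, and 259 and 376, without a call (−0.16 and 0.34). In pericyte-like cells CCN2 fell from 105.98, 30.7 and 20.2 to 3.52 to 19.4 (−2.17, adjusted p = 0.0278, and −1.22 without vehicle rat 1), while ANKRD1 rose from 4, 4 and 10 UMIs (1.35 to 1.85 CPM) to 2.15 to 7.4 CPM (1.32, adjusted p = 0.0509, not called without vehicle rat 2 or TGFBRi rat 4 or 11), beside 24.4% of genes. CCN1 rose in lymphatic endothelium-like cells, from 309, 282 and 276 to 339 to 689 (0.59, adjusted p = 0.0493, not called without vehicle rat 1 or 2 or TGFBRi rat 2, beside 16.0% of genes), and fell in vascular endothelium-like cells by 0.48 (adjusted p = 0.0199, not called without vehicle rat 2 or with library size alone as the scale, beside 32.1%). Schwann-like cells had CCN1 means of 728 and 1324, the rats apart beside 9.46% of all genes (0.78, adjusted p = 0.145), and TAGLN2 fell by 0.64 in them (beside 9.32% of genes called). In vascular smooth muscle-like cells TGFBI rose from 1, 1 and 13 UMIs (1.4 to 8.91 CPM) to 13.2 to 33.1 CPM (1.74, adjusted p = 0.0161), with 1.29 and an adjusted p of 0.129 without vehicle rat 2 and 3.16 without vehicle rat 4, beside 16.4% of genes. Fibroblast markers in these cells were 159 to 560 in vehicle and 274 to 519 in TGFBRi rats. TAGLN2 fell there by 0.39 (adjusted p = 0.0921, not called without vehicle rat 1 or 2 or TGFBRi rat 2, 4 or 14, or with library size alone as the scale).

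Immune cells carried little of the matricellular genes. TAGLN2 in B-cell-like cells fell from a mean of 943 to 625 (−0.67, adjusted p = 0.00454), called in 9 of 9 models that left out a rat, beside 17.1% of genes. Its difference was −0.46 in dendritic-like cells (adjusted p = 0.119), and the difference between classes was not tested. CCN2 averaged 0.727 and 0.308 in B-cell-like, 0.782 and 0.271 in T-cell-like and 2.38 and 0.59 in macrophage-like cells, with no member called in T-cell-like, dendritic-like or macrophage-like cells beside 7.0%, 6.33% and 4.13% of genes. Over the 13 whole-gland classes 20 of 70 member tests were called (28.6%), beside 21.3% of all gene tests in the same comparisons.

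Other targets of both pathways were counted in the single-cell contrasts. In the ACI basal sort 5 of 28 TGFβ targets rose and 8 fell, the 4 largest being TIMP1 (1.43), CDKN1A (0.82), SKI (−0.75) and BAMBI (0.59), beside 15.5% and 17.5% of all genes. Of 21 YAP and TEAD targets 4 rose and 7 fell, among them GADD45A (1.12), MYOF (−0.93), PTPN14 (−0.88) and AMOTL2 (−0.75), AMOTL2 being, like CCN2, a common readout of YAP. In the SD basal sort 0 of 21 YAP targets rose and 8 fell (PTPN14 −1.57, AMOTL1 −1.19), with a median of −0.571 against 0.0704 over all genes and 12.5% up and 12.2% down among them, and 6 of 13 Hippo pathway genes fell, TEAD1 (−1.15) and YAP1 (−1.13) among them. Of 30 TGFβ targets in that sort 3 rose and 4 fell. In whole-gland basal-like cells 11 of 29 TGFβ targets rose and 2 fell (SMAD7 1.59, SKIL 1.35 and TIMP1 −1.07 among the 4 largest with CDKN2B), and 8 of 21 YAP targets rose and 5 fell, beside 21.7% and 22.6% of all genes. Of 13 Hippo pathway genes 5 rose and 6 fell there. Within the 1 cluster with many cells of both arms 2 TGFβ targets rose and 0 fell, and 1 YAP target rose and 1 fell, beside 2.13% and 1.22% of all genes. Luminal progenitor-like cells of whole glands had 0 TGFβ targets up and 11 of 29 down, led by ITGB6 (−3.56), LTBP2 (−3.04), THBS1 (−2.01) and TIMP1 (−1.46), with a median of −0.687 against 0.0442 and 12.5% of all genes up and 14.5% down. Mature luminal-like cells had 0 up and 10 down, and 8 of 21 YAP targets down, AJUBA (−2.47) and GADD45A (−2.15) among them, beside 12.8% of all genes up and 15.9% down. In the sorted ACI luminal cells 4 of 29 TGFβ targets rose and 5 fell, with a median of −0.00275 against −0.00782, beside 13.4% and 11.7% of all genes, and 3 of 21 YAP targets rose and 5 fell. In the sorted SD luminal cells 0 of 30 TGFβ targets rose and 6 fell, and 0 of 21 YAP targets rose and 9 fell, beside 17.2% and 14.6% of all genes. In pericyte-like cells 8 of 21 YAP targets rose and 2 fell (median 0.469), beside 9.64% and 14.8% of all genes. With library size alone as the scale in place of TMM, the share of higher genes among those called moved from 47% to 54.1% down to 10.1% to 18.9% in 8 of 8 sorted comparisons and from 29.9% to 46.4% up to 53.1% to 78.1% in 10 of 13 whole-gland ones, so the counts of these lists hold for the TMM scale.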

How the data were processed

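Bulk values were deposited by the authors as normalized signal per gene: SMARTer libraries were aligned with STAR 2.5.1b to rn6, counted with HTSeq without strand and divided by DESeq2 1.30.1 size factors. The basal and luminal libraries of young ACI rats share 1 gene list, those of young SD and NMU rats share another, and every other fraction of a data set has its own. All 2526805 values above 0 came out as whole reads within 0.001, so reads were recovered (4194912 to 52314784 per library), and 85 tables have rows of no gene, with 23.1% to 42.5% of reads, left out. Single-cell counts are UMIs deposited by the authors from Cell Ranger 4.0.0 (sorted, 3′ tags) or 7.0.0 (whole gland, 5′ tags). The sort kept CD31-CD45- cells for epithelium. Samples were grouped by their labels, 4 parts of 1 rat were averaged, and 0 per-sample columns were left unused.

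The 6 genes and the gene lists were chosen with earlier results of these data known. Bulk tests used limma 3.58.1 on log2(value + 1), with all groups of a fraction and data set in 1 model, genes whose summed value was at least 10, and Benjamini-Hochberg adjustment. Fold changes on this scale understate changes of low genes. Alternatives were edgeR 4.0.16 and DESeq2 1.42.0 on the recovered reads, TMM scaling, a pseudocount of 10, no filter, only the groups compared, each rat left out, and the rat as a block. The 6 genes were tested in every comparison where they passed the filter, and the text prints a part of these results, chosen with the values known. It names up to 4 called genes of a list and, for likeness, the 3 genes with the highest correlation. In single cells the counts were summed per rat and class (at least 10 cells) and tested with edgeR's quasi-likelihood test. Cells were clustered by Leiden at a resolution of 0.8 (2000 variable genes, 30 components, 20 neighbours) without the 6 genes and named by markers. No doublet caller was run, and an alternative left out the 5% of cells with most UMIs. P-values measure the spread between rats. Basal and luminal samples came from the same animals, with deviations correlated at 0.0524 to 0.919 in 18 ACI pairs and 0.0429 to 0.274 in 8 SD pairs. The main tests between basal and luminal cells left this pairing out, and the rat was a block only in an alternative. Scripts were tested on simulated data.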

Additional observations from a re-analysis of the deposited data

Results flagged for a closer look

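In 14 of 129 bulk sets of 4 to 10 rats and 4 of 47 single-cell sets, 1 rat stood apart from its group by Dixon's criterion. For normal values chance gives about 1 in 20, a rate that does not hold for genes at 0 in most rats. In adult virgin basal cells TGFBRi rat 1 was highest for CCN2 (32902 normalized values) and ANKRD1 (360), TGFBRi rat 4 highest for FBLN1 (939) and vehicle rat 4 lowest for CCN1 (42882). In young SD basal cells TGFBRi rat 2 was highest for CCN2 (5076). In young SD luminal cells TGFBRi rat 3 was highest for CCN1 (4658), TGFBRi rat 1 lowest for TGFBI (15.5) and vehicle rat 1 highest for FBLN1 (517), and in SD CD45 cells vehicle rat 3 was highest for FBLN1 (1309). In CD45 cells of the E2 experiment TAGLN2 was highest in E2 vehicle rat 2 (28132) and FBLN1 lowest in vehicle rat 2 without E2 (5.4). ANKRD1 stood apart at 1.03 and 5.7 in adult CD45 cells of parous TGFBRi rat 3 and virgin vehicle rat 2, and was at 0 in luminal cells of parous vehicle rat 4. In these CD45 groups the other rats were at 0, which makes the flag certain, so the share flagged cannot be set against 1 in 20. In single cells, CCN1 was lowest in fibroblast-like cells of whole-gland TGFBRi rat 2 (261 CPM), mature luminal-like cells of rat 11 (65.7) and vascular smooth muscle-like cells of rat 1 (154), and TAGLN2 was highest in sorted SD basal cells of TGFBRi rat 5 (1542).

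The treatment effect differed between whole SD glands and sorted SD cells (edgeR, adjusted p of 0.1 or less) for 8 of 18 member tests (44.4%), beside 35.3% of all gene tests, which was 41.7% in basal, 29.7% in luminal progenitor-like and 34.3% in mature luminal-like cells. In basal cells the log2 differences were 1.78 for CCN1, 2.10 for CCN2, 3.42 for ANKRD1 and −1.59 for TAGLN2. They were −4.56 for ANKRD1 and −1.40 for TAGLN2 in luminal progenitor-like cells, and −2.47 for CCN2 and −1.16 for TAGLN2 in mature luminal-like cells. Within whole glands every treated rat lay above every vehicle rat for CCN1 in basal-like (1.40) and lymphatic endothelium-like cells (0.587) and below every vehicle rat in luminal progenitor-like cells (−1.40), and the difference between these classes was not tested. Groups did not overlap for 32.6%, 12.8% and 23.2% of all genes in these classes.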

How the results depend on the processing

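Of the young ACI bulk tests of treatment 3 were called by limma, 1 by edgeR, 8 by DESeq2, 6 with TMM scaling, 6 with a pseudocount of 10, 6 with only the groups compared, and 1 to 5 without 1 rat. Of the differences of effect between days 0 were called, 6 by DESeq2, 1 with TMM and 0 to 2 without 1 rat. Of vehicle rats over days 0 were called, and 1 each by DESeq2, TMM and the pseudocount of 10, 0 to 1 without 1 rat. The 0 calls became 1 by DESeq2 in young SD, adult and NMU rats, 1 with only the groups compared in NMU rats, and 0 to 1 without 1 adult rat. Between basal and luminal cells 10 of 12 tests were called, and 9 to 10 without 1 rat, and sorted single cells gave 11 to 16 calls (14 with all rats) and whole glands 15 to 23 (20 with all). With library size alone as the scale sorted cells gave 20 calls and whole glands 19. The calls lost were FBLN1 in the SD basal sort, TAGLN2 in the SD luminal sort and in whole-gland fibroblast-like, mature luminal-like and vascular smooth muscle-like cells, and CCN1 in vascular endothelium-like cells (adjusted p 0.15 to 0.262). Those gained included CCN1 in all 4 sorted SD sets (−0.98 to −0.80) and CCN2 in 2 sorted ACI luminal sets. The cause was not tested. Signs reversed for CCN1 in sorted ACI luminal progenitor-like cells (−0.25 with library size as scale, −0.023 to 0.12 without 1 rat), for TGFBI in the sorted SD basal sort (−0.22 with library size, −0.34 to 2.36 without 1 rat, −0.44 without rats SD12 and SD14, added after the data were seen), for CCN2 (−0.087) and TAGLN2 (0.12) in whole-gland basal-like cells of 1 cluster, and for CCN2 in vascular smooth muscle-like cells without 1 rat (−1.03 to 0.16). Of all genes called in ACI basal cells at day 0, 75% were higher by limma (523 genes) and 39.5% by edgeR (76 genes), and DESeq2 called 1228, TMM 1572, the pseudocount of 10 1483 and only the groups compared 1638. In ACI CD45 cells 29.3% were higher, and 47.7% with TMM. DESeq2 gave no adjusted p for FBLN1 between SD basal and luminal cells (2.76) and CCN2 in sorted ACI mature luminal-like cells (−3.45). Low UMI counts limit ANKRD1, FBLN1 and TGFBI in sorted epithelium.

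With the replicate number as a block, whole glands gave 11 calls in place of 20, from the rats numbered 1, 2 and 4, and TAGLN2 in vascular endothelium-like cells had −0.022. Whether these numbers pair the rats was not settled. Same-numbered deviations correlated at −0.499 to 0.458 in 39 pairs, 12 of them over 0.1, and 8 were best with their own number. The pairs repeat the rats numbered 1, 2 and 4 in each cell class, so they are not independent. Adult rat codes gave −0.752 to 0.411 in 21 pairs, 6 over 0.1, and 0 calls with the block. Basal and luminal samples came from the same rats, a pairing that the main tests left out, and the block on the rat added only TAGLN2 in ACI rats.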
